A study of Homo sapiens with 6 samples.

Results

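BE(2)-C is an established human neuroblastoma cell line with amplified MYCN, and 9 genes of its p53 pathway are described here after exposure to BIX01294, a compound that blocks the enzymes encoded by EHMT2 and EHMT1, which methylate lysine 9 of histone H3. The genes were MDM2, MDM4, CDKN1A, TP53I3, RRM2B, ZMAT3, FAS, BTG2 and GADD45A, a list given by name. Of these 9, 8 had a row carrying exactly 1 gene symbol among the 18404 genes tested, and each of the 8 had 1 such row. BTG2, an antiproliferative partner of the mRNA deadenylation machinery, was not analysed here. The arrays were 3 of cells given 5 µM BIX01294 for 24 h and 3 of cells given 0.05% DMSO, the solvent, for 24 h. All were grown in DMEM with dialyzed serum. The labels give no DMSO content for the treated cells and do not say whether the arrays of a group came from separate cultures, although the design text calls the samples independent, so p-values measure the spread between these samples. BE(2)-C is a clone of the SK-N-BE(2) line, and the values stand for this clone alone.

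p53 is a transcription factor that is kept scarce by the ubiquitin ligase MDM2 and its relative MDM4, and that, once released by DNA damage or other stress, raises transcripts for cell cycle arrest, DNA repair and cell death, MDM2 among them. The SK-N-BE(2) lineage that includes BE(2)-C is known to carry a missense mutation in p53. Transcripts of p53 itself were not analysed here, and no array measures the p53 protein. The EHMT2 and EHMT1 enzymes have also been reported to methylate p53 itself.

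Values are log2 expression per gene, and changes are BIX01294 minus DMSO. A gene is said to have risen or fallen where limma's moderated test gave a Benjamini-Hochberg adjusted p under 0.05 over all 18404 genes. Levels of different genes come from different probes, so percentiles of level among all genes are given only as a rough guide. The table gives no detection call. The array medians lay between 6.94 and 7.01, and each array correlated more closely with its own group (mean r of 0.995 to 0.996) than with the other (0.991 to 0.992). Of 10 adrenergic neuroblastoma markers, 9 were measured, and their mean levels stood at percentiles 79.3 to 99.9 of all genes. MYCN was at percentile 99.9. The 4 measured leukocyte markers stood at percentiles 2.4 to 35.6 (PTPRC lowest, CD14 highest) and the 5 epithelial markers at 13.3 to 54.5 (CDH1 lowest, KRT18 highest), and no marker of these 2 lists passed the test. Among 9 measured mesenchymal or Schwann-like markers 3 rose (VIM, CD44 and S100B), with a mean over the list of 7.67 to 7.76 on BIX01294 arrays and 7.45 to 7.51 on DMSO arrays. Among the 9 adrenergic markers 1 rose and 4 fell, with a mean of 11.38 to 11.42 on BIX01294 arrays and 11.49 to 11.52 on DMSO arrays. These shifts run alongside every difference below, and their part in them was not tested. In such bulk RNA, fewer cells of a kind and less RNA per cell cannot be told apart.

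The p53 consensus site is a pair of 10-base units, each of 3 purines, C, 2 bases that are A or T, G and 3 pyrimidines. The unit reads alike on both strands. RefSeq start-site windows (GRCh38.p14) were found for 7 of the 9 genes, 13 windows in all, and the 250 bases before each start were searched for 2 units at most 13 bases apart with at most 2 mismatches in all and with C and G kept in place. Such a pair was found before 1 of the 3 FAS starts and before 2 overlapping MDM2 starts, which share 1 site, and in 2.49% of all 35116 windows. It was not found in those of TP53I3, MDM4, CDKN1A, BTG2 or ZMAT3, which says only that these letters are not in these windows. The MDM2 and FAS windows with a pair, and that of TP53I3, the gene with the largest rise below, are shown from the 5′ end, with the adjoining pair of units in capitals for MDM2 and FAS. The capitals in MDM2 run from base -94 to base -75 before its start and those in FAS from base -122 to base -103. The FAS window held 2 pairs under this rule, and the other joins the same first unit to one 5 bases after it that ends at base -98 and overlaps the capitals. The windows are chr12:68808767-68809016 on the plus strand for MDM2, chr10:88991181-88991430 on the plus strand for FAS and chr2:24084835-24085084 on the minus strand for TP53I3.
MDM2: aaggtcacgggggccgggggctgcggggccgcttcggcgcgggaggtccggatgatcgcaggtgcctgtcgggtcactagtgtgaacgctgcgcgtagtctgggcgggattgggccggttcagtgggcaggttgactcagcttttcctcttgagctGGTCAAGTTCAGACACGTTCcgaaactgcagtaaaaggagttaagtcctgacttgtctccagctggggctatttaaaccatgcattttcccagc
FAS: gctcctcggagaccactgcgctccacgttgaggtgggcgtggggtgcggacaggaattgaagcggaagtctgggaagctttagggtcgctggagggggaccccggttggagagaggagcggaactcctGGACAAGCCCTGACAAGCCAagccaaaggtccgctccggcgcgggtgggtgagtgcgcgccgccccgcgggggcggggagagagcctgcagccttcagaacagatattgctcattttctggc
TP53I3: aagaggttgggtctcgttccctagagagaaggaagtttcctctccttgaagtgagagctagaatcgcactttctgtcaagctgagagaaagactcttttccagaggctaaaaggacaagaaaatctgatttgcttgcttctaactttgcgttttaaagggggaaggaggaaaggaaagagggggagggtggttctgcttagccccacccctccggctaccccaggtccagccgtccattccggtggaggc

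BIX01294 was followed by a rise of TP53I3 and GADD45A and by a fall of MDM4, while MDM2, CDKN1A, RRM2B, ZMAT3 and FAS did not pass the test. Thus 2 of 8 measured genes rose, where 12.9% of all genes rose, and 1 of 8 fell, where 10.7% of all genes fell. With 3 of 8 called, beside 23.6% of all genes, nothing particular to the 8 is read from the count. No overlap between groups was seen for 4 of the 8 (TP53I3, GADD45A, MDM2 and MDM4), against 40.1% of all genes. The median change of the 8 was 0.02, beside -0.0059 over all genes.

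**Figure D1:**
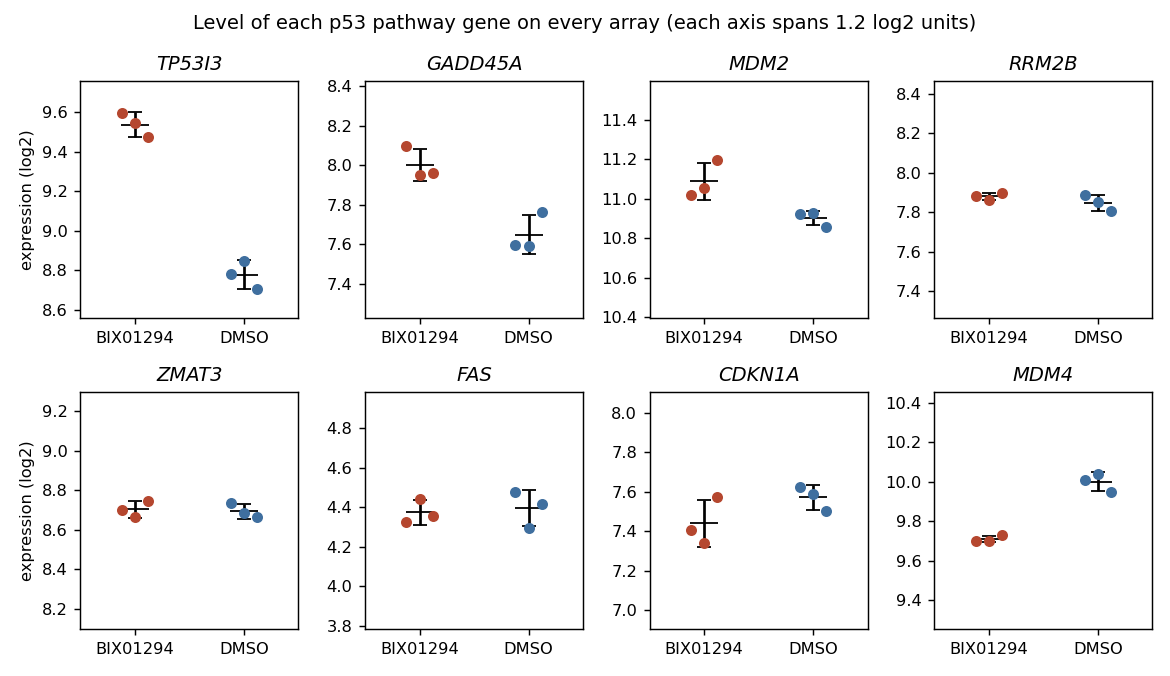
Each panel shows the log2 expression of 1 gene on the 3 BIX01294 arrays (left, red) and the 3 DMSO arrays (right, blue); bars are the mean and SD, and every axis spans 1.2 log2 units. TP53I3, GADD45A and MDM2 lie higher on all BIX01294 arrays and MDM4 lower, whereas the groups overlap for RRM2B, ZMAT3, FAS and CDKN1A.

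The regulators of p53 come first. MDM4, which binds p53 and blocks its transcriptional activity, measured 9.70, 9.70 and 9.73 on BIX01294 arrays, against 10.01, 10.04 and 9.95 on DMSO arrays. All 3 BIX01294 values lay below all DMSO values, with an SD of 0.02 within the BIX01294 group and 0.05 within the DMSO group. MDM4 fell by 0.29 on the log2 scale (SE 0.053, 95% interval -0.41 to -0.17, adjusted p = 0.006 in limma), which is 1.22-fold lower. MDM2, the ubiquitin ligase that marks p53 for degradation and is itself a p53 target, measured 11.02, 11.05 and 11.19 on BIX01294 arrays, against 10.92, 10.93 and 10.86 on DMSO arrays. Every BIX01294 value was above every DMSO value, by a small margin. The difference of 0.19 (SE 0.064, 95% interval 0.04 to 0.33) missed the threshold (adjusted p = 0.0715 in limma). It passed with each array centred on its median, with array weights, with an intensity trend and robust estimation, or with either filter on dim genes (adjusted p from 0.00619 to 0.0467). It did not pass in the other 11 alternatives, among them quantile normalization (0.14, adjusted p = 0.162), all rows tested (adjusted p = 0.127), the replicate block (adjusted p = 0.124) and each fit that left out 1 array (0.13 to 0.22, adjusted p 0.0715 to 0.206). MDM2 is not counted as changed.

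Among genes of arrest and repair, CDKN1A encodes p21, an inhibitor of cyclin-dependent kinases and the best known transcriptional target of p53. It measured 7.40, 7.34 and 7.57 on BIX01294 arrays and 7.63, 7.59 and 7.50 on DMSO arrays. The groups overlapped, since BIX01294 replicate 3 stood above DMSO replicate 3. The difference was -0.13 (SE 0.073, 95% interval -0.30 to 0.04, adjusted p = 0.248 in limma). It was -0.08 without BIX01294 replicate 2 (SE 0.078, adjusted p = 0.506 in limma) and -0.20 without BIX01294 replicate 3 (SE 0.0681, adjusted p = 0.0983 in limma), the ends of the range when 1 array was left out. GADD45A, a stress-induced protein that binds PCNA and p21, measured 8.10, 7.95 and 7.96 on BIX01294 arrays and 7.59, 7.59 and 7.76 on DMSO arrays. The groups did not overlap, and the lowest BIX01294 array stood 0.19 above the highest DMSO array. GADD45A rose 1.28-fold (log2 change 0.35, SE 0.071, 95% interval 0.19 to 0.52, adjusted p = 0.00888 in limma). RRM2B, the p53-inducible small subunit of ribonucleotide reductase that supplies deoxynucleotides for repair, measured 7.88, 7.86 and 7.90 on BIX01294 arrays and 7.89, 7.85 and 7.80 on DMSO arrays. Its difference of 0.03 (95% interval -0.09 to 0.15) was within the spread of the arrays.

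TP53I3, also called PIG3, is a quinone oxidoreductase-like enzyme linked to reactive oxygen species in p53-dependent cell death. It measured 9.60, 9.55 and 9.47 on BIX01294 arrays, against 8.78, 8.85 and 8.70 on DMSO arrays. The lowest BIX01294 array stood 0.63 above the highest DMSO array. TP53I3 rose 1.69-fold (95% interval 1.53 to 1.87, log2 change 0.76, SE 0.062, adjusted p = 0.00018 in limma), a change whose size was at percentile 98.6 of all genes. Its interval lay wholly above those of the other 7 genes. ZMAT3, a zinc finger protein that binds RNA, measured 8.70, 8.66 and 8.75 on BIX01294 arrays and 8.74, 8.68 and 8.66 on DMSO arrays, a difference of 0.01 (95% interval -0.11 to 0.13). FAS, the death receptor for FAS ligand, measured 4.32, 4.44 and 4.35 on BIX01294 arrays and 4.47, 4.29 and 4.41 on DMSO arrays. FAS stood at percentile 6 of all genes and was not shown to be above background, so a change in it could be missed.

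**Figure D2:**
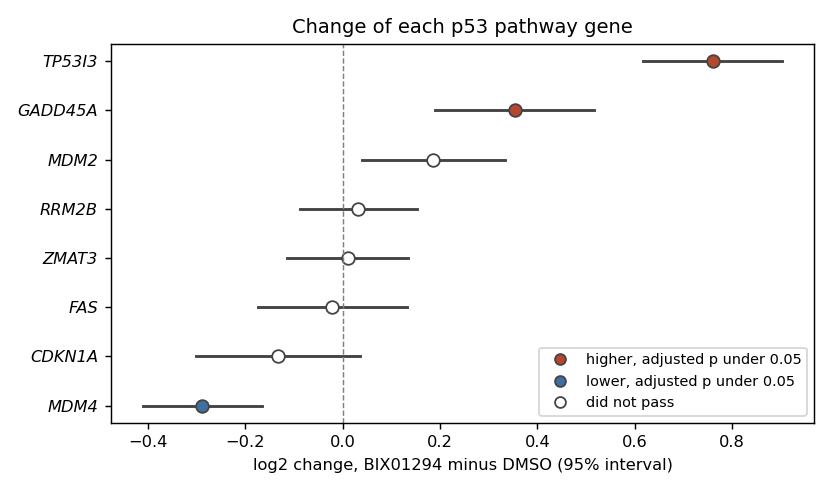
Points are the log2 change of each gene (BIX01294 minus DMSO, 3 arrays per group) and bars its 95% interval from limma, not adjusted for the number of genes; filled points passed an adjusted p of 0.05. TP53I3 (0.76) and GADD45A (0.35) rose, MDM4 (-0.29) fell, and the interval of MDM2 starts at 0.04 without passing the adjusted test.

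Other p53 targets were counted in 4 lists by role. Of 47 measured targets, 9 rose, 10 fell and 28 did not pass, with a median change of 0.02. The share called, 40.4%, stood beside 23.6% of all genes, and the directions were mixed. All lists here and below were written with earlier results of these data known. A higher share called therefore cannot be told apart from how the genes were picked. Each count below is to be read beside 12.9% of all genes rising and 10.7% falling. Of the 19 that passed, 14 kept their call without any 1 of the 6 arrays. The lists' first 3 genes by size of change are named by rule, and any further gene was chosen after its value was seen.

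The targets of growth control held the most changes, 4 higher and 4 lower of 12, and all 8 kept their call without any 1 array. PLK2, a polo-like kinase, measured 7.40, 7.32 and 7.37 on BIX01294 arrays and 6.80, 6.77 and 6.56 on DMSO arrays, a rise of 0.66 (SE 0.074). PLK3, a related kinase, rose by 0.52 (SE 0.052), the cell cycle repressor E2F7 by 0.60 (SE 0.062) and SUSD6 by 0.34 (SE 0.066). SESN2, a sestrin that restrains mTORC1, measured 7.31, 7.87 and 7.57 on BIX01294 arrays and 9.28, 9.49 and 9.31 on DMSO arrays, a change of -1.78 (SE 0.132). GDF15, a secreted stress cytokine, measured 6.88, 7.05 and 6.97 on BIX01294 arrays and 8.78, 8.37 and 8.19 on DMSO arrays, a change of -1.48 (SE 0.137). No BIX01294 array reached any DMSO array for either gene. SESN1 fell by 0.27 (SE 0.055) and cyclin G1 (CCNG1) by 0.27 (SE 0.051).

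In the apoptosis list 1 rose and 1 fell of 16. AEN, a nuclease active in cell death, measured 10.12, 10.06 and 10.08 on BIX01294 arrays and 9.47, 9.42 and 9.32 on DMSO arrays, a rise of 0.68 (SE 0.060). PMAIP1, which encodes the BH3-only protein NOXA, fell by 0.68 (SE 0.070). BAX and BBC3 (PUMA), the other widely used p53 readouts of this kind, differed by 0.07 (SE 0.061) and -0.11 (SE 0.083) and did not pass; they were named after their values were seen. Without DMSO replicate 3 APAF1, which scaffolds the apoptosome, also passed as lower (-0.25, adjusted p = 0.0196 in limma).

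In DNA repair 2 of 6 rose and none fell. PCNA, the replication clamp, rose by 0.53 (SE 0.058) in a call kept without any 1 array, whereas the translesion polymerase POLH (0.20, SE 0.057) lost its call whichever array was left out (adjusted p 0.053 to 0.1 in limma). In metabolism and autophagy 2 of 13 rose and 5 fell. TP53INP1, a stress protein linked to autophagy, changed by -1.03 (SE 0.126), TIGAR, which lowers glycolytic flux, by 0.44 (SE 0.068) and the lysosomal fucosidase FUCA1 by -0.39 (SE 0.082). FUCA1 stood at percentile 21.9 of all genes and was not shown to be above background. The other falls (GPX1, DRAM1 and ALDH4A1) and the rise of PANK1 each lost the call without at least 3 of the 6 arrays. GPX1 also lost it when all its single-symbol rows were averaged (-0.14, adjusted p = 0.198 in limma). DRAM1 stood at percentile 16.5 of all genes and was not shown to be above background. Leaving out 1 array in turn gave between 2 and 3 falling genes and 1 or 2 rising genes in this list.

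Several p53 targets are also reported targets of ATF4 or CHOP, the transcription factors of the integrated stress response. Of 8 such genes, picked by hand from general knowledge, 5 fell and none rose, where 10.7% of all genes fell and 12.9% rose. All 8 had a change below 0, with a median of -0.53, and reported targets left out of the list could differ. This list includes genes whose fall was known when it was written, so the count cannot serve as separate support for that direction. DDIT4, an inhibitor of mTORC1, measured 7.91, 7.80 and 7.67 on BIX01294 arrays and 10.75, 10.88 and 10.79 on DMSO arrays, a change of -3.01 (SE 0.075). SESN2, GDF15 and PMAIP1 are also in this list, and the fall of ATF3 (-0.37, SE 0.098) lost its call without any of 5 arrays, all but DMSO replicate 3 (adjusted p up to 0.104 in limma). Without the shared genes, the 4 target lists held 9 rises and 7 falls among 42 genes. The share called was 38.1%, beside 23.6% of all genes, and the falls numbered 4 or 5 when 1 array was left out. Since genes known to fall were taken out, the lower count of falls follows from that choice and is no separate result.

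**Figure D3:**
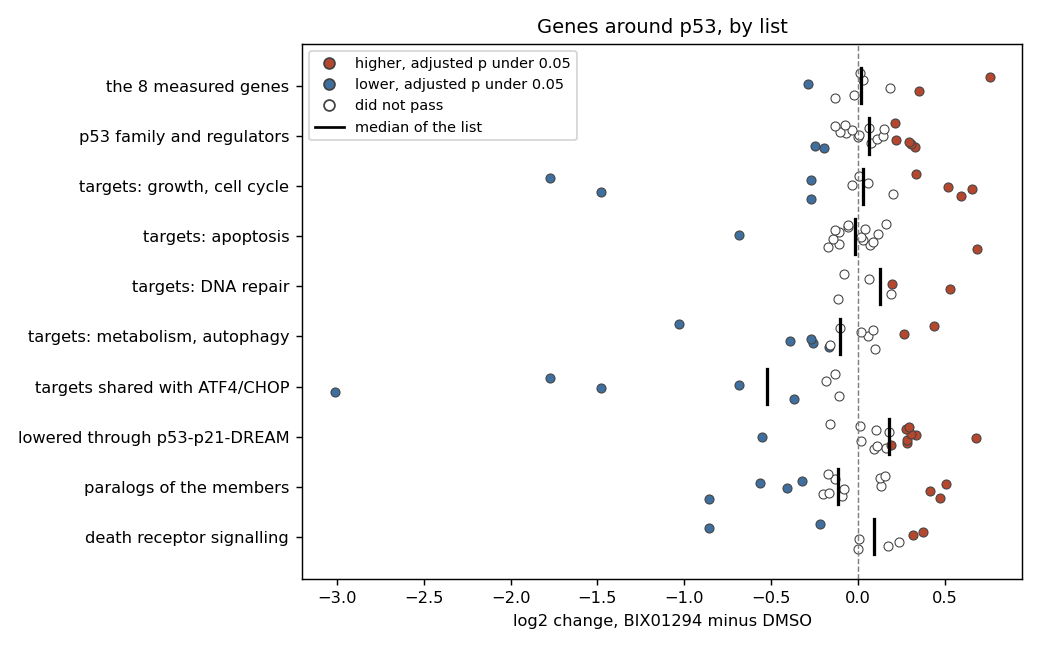
Points are genes, placed by log2 change (BIX01294 minus DMSO, 3 arrays per group) within each list; red and blue points passed an adjusted p of 0.05, open points did not, and black bars are list medians. The 8 genes shared with ATF4 or CHOP all lie below 0 (median -0.53), in a list that includes genes already known to fall. SESN2, GDF15, PMAIP1, BBC3 and TNFRSF10B are plotted again in the growth or apoptosis list. The other target lists hold points on both sides of 0, although no gene of the DNA repair list passed as lower.

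Among p53 family members and regulators, 5 of 19 measured genes rose and 2 fell, a share of 36.8% called beside 23.6% of all genes. PPM1D, which did not pass, is counted both here and in the growth list. The damage kinase ATR rose by 0.33 (SE 0.067) and the checkpoint kinase CHEK1 by 0.31 (SE 0.055), and both kept their call without any 1 array. The ubiquitin ligase COP1 rose by 0.29 (SE 0.069), a call lost without BIX01294 replicate 1 or 3 or DMSO replicate 2 (adjusted p up to 0.0632 in limma). The 2 falls were CDKN2A, which encodes the MDM2 inhibitor ARF as well as p16 (-0.25, SE 0.065), and ATM (-0.19, SE 0.060). With 1 array left out, the fall of CDKN2A passed only without BIX01294 replicate 2 or DMSO replicate 3, and that of ATM only without DMSO replicate 3. Leaving out 1 array left 3 or 4 rises, 3 of them without BIX01294 replicate 3 or DMSO replicate 1.

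Genes that p53 is known to lower through p21 and the DREAM repressor complex were counted next. Of 17 measured, 8 rose and 1 fell, with a median change of 0.18, where 12.9% of all genes rose and 10.7% fell. All 17 stood above the median gene level. With only such genes fitted, 10 of the 17 rose and 2 fell, beside 2850 and 1899 of 9202 genes. CHEK1 is counted both here and among the regulators above. The phosphatase CDC25A rose by 0.68 (SE 0.082) and the mitotic kinase CDK1 by 0.34 (SE 0.067), whereas the phosphatase CDC25C fell by 0.55 on the log2 scale (SE 0.087). The rises numbered 5 without DMSO replicate 1 and 7 without any other.

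Among 16 measured relatives of the 9 genes, 3 rose and 4 fell, a share of 43.8% called beside 23.6% of all genes. BTG1, a relative of BTG2, measured 9.43, 9.44 and 9.40 on BIX01294 arrays and 10.30, 10.33 and 10.21 on DMSO arrays, a change of -0.86 (SE 0.057, adjusted p = 6.62e-05 in limma). TOB1, of the same antiproliferative family, fell by 0.56 on the log2 scale (SE 0.052), while BTG3 rose by 0.48 (SE 0.061). RRM2, the small subunit of ribonucleotide reductase used in S phase, measured 11.61, 11.58 and 11.63 on BIX01294 arrays and 11.11, 11.13 and 11.06 on DMSO arrays, a rise of 0.51 (SE 0.052), where its p53-inducible relative RRM2B differed by 0.03. GADD45G fell by 0.41 on the log2 scale (SE 0.072), where GADD45A rose by 0.35, and GADD45B differed by -0.08 (SE 0.065). The rise of CRYZ, a quinone reductase related to TP53I3 (0.42, SE 0.100), and the fall of TOB2 (-0.32, SE 0.080) each lost the call without 4 of the 6 arrays. The differences between relatives were not tested.

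Around FAS, 2 of 8 measured genes rose and 2 fell, a share of 50% called beside 23.6% of all genes. FAIM2, a neuronal inhibitor of FAS-induced death, measured 11.02, 10.96 and 10.99 on BIX01294 arrays and 11.88, 11.82 and 11.84 on DMSO arrays, a change of -0.86 (SE 0.052, adjusted p = 4.25e-05 in limma). FAIM, another inhibitor, rose by 0.38 (SE 0.063), and the adaptor FADD rose by 0.32 (SE 0.067). The small fall of the ligand FASLG (-0.22, SE 0.063) lost its call whichever array was left out (adjusted p 0.0554 to 0.127 in limma). FASLG stood at percentile 18.9 of all genes and was not shown to be above background. Without BIX01294 replicate 2 CASP8, the initiator caspase of this pathway, passed as higher (0.30, adjusted p = 0.0423 in limma).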

How the data were processed

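Total RNA of 6 BE(2)-C samples was labelled for Affymetrix gene-level arrays, 1 array each, per the labels' protocols. The deposited table holds 1 value per row and array and the values (1.93 to 14.93) are read as log2; Partek is the only tool in the submitters' processing notes, and its settings (background, normalization, summarization) were not given in the sources used here. Of 32321 rows, 19158 had exactly 1 symbol in the platform annotation and gave 18404 genes, the row with the highest mean being kept. Symbols were updated through Entrez identifiers (19128 rows matched). The fit used the unaltered values and limma (version 3.58.1, R version 4.3.3), with treatment as the only term and empirical Bayes. Tests were two-sided, with Benjamini-Hochberg over 18404 genes, and the fit was tested on simulated data. There it recovered 11.4% of log2 changes of 0.25, 68.4% of 0.5 and 94% of 1. A gene that did not pass may thus have changed by a small amount. Lists were counted, not tested. Named were all members, the 3 called genes with the largest change in each list, and the 3 genes most correlated with each called member. Members and lists were chosen with earlier results of these data known. Alternatives were scaling, filters, rows, variance models, array weights, a replicate block, a minimum effect and leaving out each array. The number of arrays limits the precision.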

Additional observations from a re-analysis of the deposited data

How the results depend on the processing

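TP53I3 and GADD45A stayed called as higher and MDM4 as lower in each of the 15 alternatives other than the minimum effect, the 6 that left out 1 array included. Without 1 array TP53I3 ranged from 0.72 to 0.79, GADD45A from 0.31 to 0.41 and MDM4 from -0.31 to -0.27. The counts of members higher and lower stayed at 2 and 1 without any 1 array. With limma's treat and a minimum log2 change of 0.5, both counts were 0, and 64 genes were higher and 81 lower over the whole table; 1 of the 8, TP53I3, had an unadjusted p under 0.05. The adjusted p there was 0.14 for TP53I3 and 1 for GADD45A and for MDM4. MDM2 passed as higher, making 3, with each array centred (0.22, adjusted p = 0.046), without genes below the median level (adjusted p = 0.0174), without genes below the lower quartile (adjusted p = 0.042), with an intensity trend and robust estimation (adjusted p = 0.00619) and with array weights (0.19, adjusted p = 0.0467). Leaving out dim genes lowered the number of tests. The SE of MDM2 was smaller too, 0.0562 with the median filter and 0.0606 with the lower quartile filter, against 0.0638 without a filter. Why MDM2 passed in these fits was not tested. The sign of genes near 0 turned: ZMAT3 was -0.0142 after quantile normalization and ran from -0.0111 to 0.0312 without 1 array (negative without BIX01294 replicate 3 or DMSO replicate 3), and FAS was 0.0127 after centring and ran from -0.0707 to 0.0195 without 1 array (positive without BIX01294 replicate 1 or DMSO replicate 1). FAS, and with the median filter CDKN1A, were left out by the filters. Both groups carry replicate numbers 1 to 3. The labels do not say that these mark a shared culture or day, so they were not taken to pair the samples. The deviations of same-numbered arrays correlated at 0.125, -0.106 and 0.0453. With 3 arrays per group, such values cannot show whether the samples were paired. With the replicate block the members' counts stayed at 2 and 1, with 1987 genes higher and 1654 lower over all genes, against 2379 and 1970 without it; BIX01294 replicate 2 correlated best with DMSO replicate 3. The lack of a detection call limits what can be said of dim genes such as FAS.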

Other observations

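For each gene that passed, the genes most like it over the 6 arrays were found by Pearson's r, as a description; the 6 arrays share the treatment difference, so any gene that differs between the groups scores high. For TP53I3 these were MCUR1 (r = 0.99894), USP38 and EMP3, a membrane protein, and 234 genes had an r over 0.99. For MDM4 they were TRIM4 (r = 0.9992), BRD10 and GVQW3, with 112 genes over 0.99. For GADD45A they were CYB5RL (r = 0.99756), SUSD6 and OR51A4, and only 3 genes were over 0.99. SUSD6, itself listed as a p53 target, measured 8.27, 8.12 and 8.15 on BIX01294 arrays and 7.79, 7.82 and 7.93 on DMSO arrays. Like GADD45A, it was highest on BIX01294 replicate 1 and, among DMSO arrays, highest on the third. SUSD6 was picked by r over these same arrays, so the shared order follows from that choice and is no separate result.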
